A study of Homo sapiens with 5 samples.

Results

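HMGA2 and LIN28B were described here by their surrounding chromatin: every peak that overlapped an hg19 window of 560 kb around HMGA2 and the stretch upstream of it (chromosome 12, 65850000 to 66410000) or a window of 230 kb around LIN28B (chromosome 6, 105350000 to 105580000) was taken as a member. Of the 100703 peaks in 3 lists, 100 were members. The windows were chosen by their peaks in these same lists, so the counts and heights below describe the members and were not tested. The lists come from chromatin immunoprecipitation and sequencing (ChIP-seq) of 2 rhabdomyosarcoma lines, RD and RH18. Both are established human lines labelled fusion-negative, that is, without the PAX-FOXO1 fusion gene of the other class of this muscle-like tumour. Cells were grown in serum-containing medium with no treatment named, and fixed with 1% formaldehyde for 12 minutes. In RD, histone H3 acetylated at lysine 27 (H3K27ac) was mapped, and in RH18 both H3K27ac and the muscle transcription factor MYF5. Each was 1 library, so a difference between the lines and one between the libraries cannot be told apart. The input samples of both lines were not analysed here.

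HMGA2 is a small chromatin protein that binds the minor groove of AT-rich DNA. It is abundant in embryonic tissue, largely silent in adult tissue, and made again in many mesenchymal tumours. LIN28B is an RNA-binding protein that blocks the maturation of the let-7 microRNAs, and let-7 in turn represses HMGA2 through sites in its mRNA, which is the known link between these genes. H3K27ac marks active promoters and enhancers, and MYF5 binds the E-box motif CANNTG at muscle genes.

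Mature let-7 sequences are shown because their shared seed, bases 2 to 8 in capitals, is what reads the HMGA2 message. In RefSeq (GRCh38.p14), 11 mature names carry this seed. These 3 differ only outside it, and small RNA was not measured in these libraries.
let-7a-5p: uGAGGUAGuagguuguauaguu
let-7d-5p: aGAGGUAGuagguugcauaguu
miR-98-5p: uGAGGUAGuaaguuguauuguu

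RefSeq gives LIN28B 2 promoters whose starts lie 16142 bp apart. They are shown because they differ in kind, and acetylated regions near a start of LIN28B were listed in RD only. Each runs from 250 bases before to 50 after a start, read 5′ to 3′ on the plus strand of GRCh38.p14, with matches to CANNTG in capitals.
upstream start, chr6:104940715-104941014: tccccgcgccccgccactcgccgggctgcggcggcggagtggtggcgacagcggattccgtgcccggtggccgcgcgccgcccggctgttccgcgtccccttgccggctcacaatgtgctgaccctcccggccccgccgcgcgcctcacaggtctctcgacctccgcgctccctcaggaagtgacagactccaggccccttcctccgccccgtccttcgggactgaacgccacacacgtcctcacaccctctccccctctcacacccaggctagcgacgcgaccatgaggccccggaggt
downstream start, chr6:104956857-104957156: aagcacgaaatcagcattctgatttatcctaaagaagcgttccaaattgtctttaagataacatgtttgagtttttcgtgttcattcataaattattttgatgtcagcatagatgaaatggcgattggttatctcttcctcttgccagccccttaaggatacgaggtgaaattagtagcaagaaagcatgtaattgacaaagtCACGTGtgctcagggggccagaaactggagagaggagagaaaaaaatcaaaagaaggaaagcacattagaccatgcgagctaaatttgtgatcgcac
The upstream promoter is rich in GC, at 73.0% with 37 CpG dinucleotides, and holds no CANNTG. The downstream one has 39.0% GC with 8 CpG, and holds 1 match, CACGTG. Over the 35116 promoters of this length in the table, the median GC content was 58.7%, the median CpG number was 14, and 68.7% held a CANNTG (read alike on both strands). The motif CAGCTG was found in 17.9% of them and in neither LIN28B promoter. These are GRCh38 sequences, and the hg19 peaks below were not placed on them.

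Height is given as the number of sequenced tags at a peak's summit, recovered from the deposited fold enrichment and p-value. The median summit held 85 tags in the RD H3K27ac list of 43159 regions, 57 in the RH18 H3K27ac list of 46408 and 42 in the MYF5 list of 11136, and the highest held 319, 443 and 339. Tag numbers and folds of different lists are not on one scale, so lines were compared through positions, through ranks within a list and through ratios within a library. Intervals are 95% and cover counting error only.

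The HMGA2 window was densely acetylated in RD and sparsely in RH18. RD had 78 regions there (exact Poisson interval 61.7 to 97.3), which covered 38269 bp or 6.83% of the window. RH18 had 14 (7.65 to 23.5), covering 8147 bp or 1.45%. That is 5.57 RD regions for each RH18 region, where the whole lists stand at 0.93, and 4.70 times the covered bases, where the whole lists stand at 0.651. Regions with at least the median tags of their own list numbered 40 in RD and 4 in RH18. The RD members ranged from 27 to 269 tags (median 86.5) and the RH18 members from 18 to 176 (median 44.5), so by tags the median RD member was near the middle of its list and the median RH18 member below it. By fold both were above the middle, at 10.4 in RD (list median 8.0) and 16.4 in RH18 (list median 13.98). MYF5 had 3 peaks, of 25, 29 and 42 tags.

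**Figure D1:**
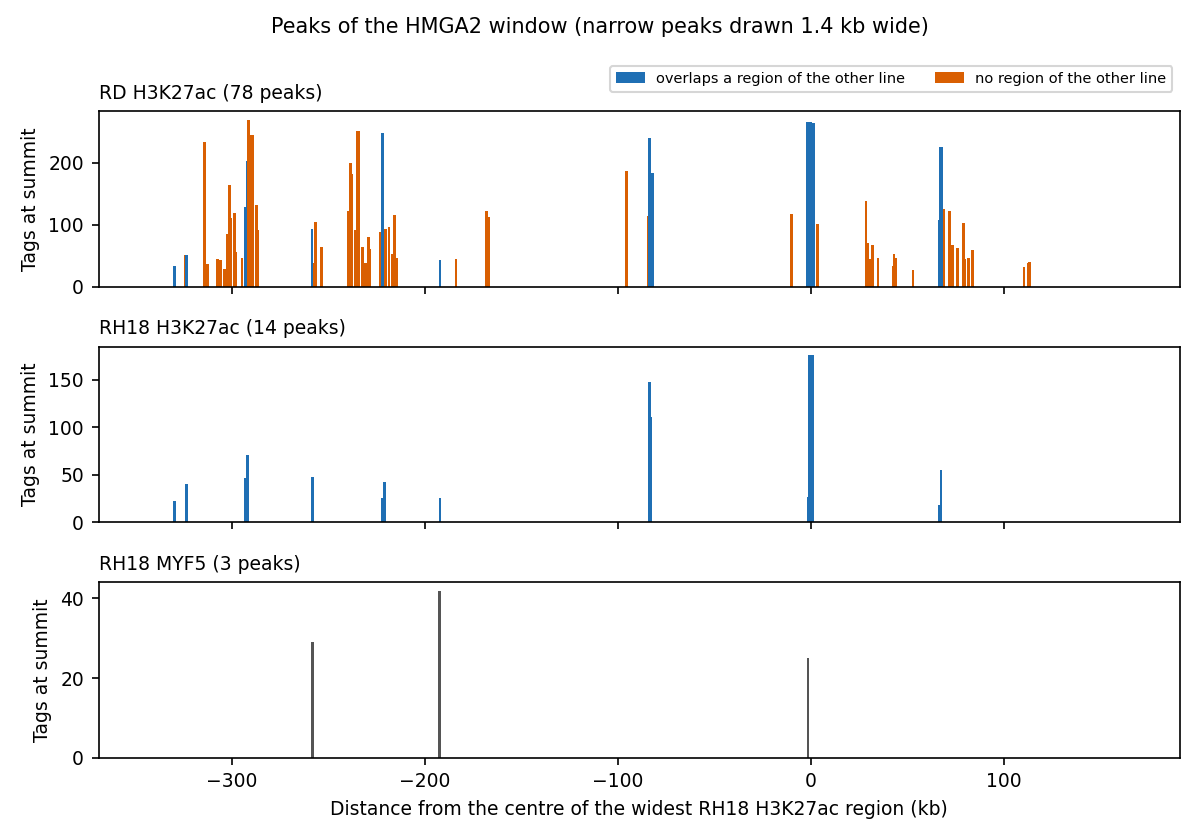
Peaks of the HMGA2 window in the 3 lists, by distance in kb from the centre of the widest RH18 H3K27ac region, with bar height giving the recovered tags at the summit (each panel has its own scale). The 78 RD regions form clusters on both sides of zero, while the 14 RH18 regions sit at a few of the same places, highest at zero with 176 tags.

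RD regions within 12.5 kb of each other were joined, which gave 10 stretches, numbered here from left to right. By general knowledge of the hg19 map, HMGA2 is transcribed rightwards from a start inside stretch 7, so stretches 1 to 6 lie upstream and 8 to 10 within the gene; no hg19 annotation was used, and exons and introns were not assigned. The widest region of each line lay in stretch 7, and is called the start region below. Left of it lay 53 RD and 11 RH18 regions, and right of it 24 and 2. The 24 include the RD region just beside it (66219348 to 66220816). On the left, MSRB3 is the protein-coding gene before HMGA2 in RefSeq's gene order. Which gene the upstream stretches act on was not tested.

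Stretch 1, the farthest upstream, was the largest in RD. It spanned 43.2 kb (65888616 to 65931817), ended 288 kb before the summit of the RH18 start region, and held 21 RD regions covering 12100 bp. Its rank among the 16671 joined domains of the RD list, by fold times width, was 18, and 39 by summed tags. Its highest region (65927010 to 65928117) had a fold of 45.4 and 269 tags, more tags than 99.7% of the RD list, and overlapped no RH18 region. The next region to the right (65928284 to 65930353, fold 33.8, 244 tags) had no RH18 counterpart either, with 1443 bp to the nearest. RH18 had 4 regions in the stretch, covering 1306 bp. The highest of these (65926472 to 65926840) had a fold of 25.9 and 71 tags, more than 59.2% of its list, and ended 169 bp before the highest RD region began.

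Stretch 3, nearer to the gene, also held tall RD regions beside low RH18 ones. It spanned 25.3 kb (65978715 to 66003982) with 18 RD regions covering 7966 bp, and ranked 117 in the RD list. Its region of highest fold (65996406 to 65997632, fold 37.5, 248 tags) overlapped both RH18 regions of the stretch, which had 26 and 42 tags. The region with most tags (65983479 to 65985215, fold 34.6, 250 tags) lay 11250 bp from the nearest RH18 region. The neighbouring stretches were small. Stretch 2 (65959852 to 65965154) held 4 RD regions of 38 to 104 tags, the highest (65961710 to 65962043) with a fold of 17.9, and 1 RH18 region of 48 tags. Stretch 4 held 2 RD regions of 43 and 45 tags and 1 RH18 region of 26. Stretch 5 held 2 RD regions of 112 and 122 tags and none of RH18.

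Stretch 6, whose right edge lay 83.2 kb left of the summit of the RH18 start region, held high regions of both lines. Of its 5 RD regions (66122694 to 66136777), 3 overlapped RH18 regions. The highest in RD (66134587 to 66135258) had 239 tags and a fold of 19.3, and its RH18 counterpart (66134617 to 66135318) had 148 tags and a fold of 31.0. Their summits were 3 bp apart. A second RH18 region beside it (66135447 to 66136817, fold 22.8) had 111 tags and lay over 2 RD regions of 170 and 184 tags. This pair held the second and the third most tags of all RH18 members.

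The start region was the highest and widest acetylated place of the window in RH18. It covered 2918 bp there (66217410 to 66220327) with a fold of 49.2 and 176 tags, more than 89.6% of the list. A narrow RH18 region of 27 tags lay just left of it. Joined, they ranked 1311 among the 18842 RH18 domains by fold times width and 5763 by summed tags. In RD this place was covered by 2 regions, of 2679 bp (66216582 to 66219260, 266 tags) and 1469 bp (66219348 to 66220816, 263 tags). Each had more tags than over 99% of the RD list, and the wider is the RD start region. The nearest summits of the lines were 4 bp apart.

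Right of the start, RD had 3 stretches and RH18 had regions in 1 of them. Stretch 9 (66284602 to 66302137, rank 325 in RD) held 10 RD regions, led by one of 1996 bp with a fold of 32.9 and 225 tags (66285162 to 66287157). RH18 had 2 regions there, of 18 tags and, at 66285664 to 66285988, of 55 tags with a fold of 20.2. Stretch 8 (66246713 to 66271385) held 9 RD regions of 27 to 139 tags, the highest (66246713 to 66247014) with a fold of 20.2. Stretch 10 (66328584 to 66331895) held 3 of 32 to 40 tags, the highest (66331635 to 66331895) with a fold of 7.27. RH18 had no listed region in either, which says only that none passed the threshold of that list.

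Measured against the start region of the same library, the highest regions of stretches 1, 3 and 9 had larger ratios in RD than in RH18. This ratio was chosen after the data were seen, and its intervals give the counting error of 1 library, not the spread between cultures of a line. The stretches were joined from RD regions, and each ratio takes the highest of unequal numbers of regions. RD had 21 against 4 of RH18 in stretch 1, 18 against 2 in stretch 3 and 10 against 2 in stretch 9. Taking the highest of more regions favours RD, and the intervals do not cover this. In stretch 1 the highest region had 1.01 times the tags of the start region in RD (exact interval 0.85 to 1.20) and 0.403 times in RH18 (0.302 to 0.534). In stretch 3 the ratios were 0.94 (0.788 to 1.12) and 0.239 (0.166 to 0.336). In stretch 9 they were 0.846 (0.705 to 1.01) and 0.313 (0.227 to 0.425). In stretch 6 the ratios were 0.898 (0.751 to 1.07) and 0.841 (0.671 to 1.05). In stretch 2 they were 0.391 (0.309 to 0.492) and 0.273 (0.194 to 0.377), and in stretch 4 they were 0.169 (0.120 to 0.233) and 0.148 (0.0939 to 0.224). The 99th percentile of the RD list was 248 tags and its highest value 319, so regions of 225 to 269 tags lay near the upper end of that list, where tag ratios have little room. With 1 library a line no test was made, and whether any stretch differs between the lines beyond their spread cannot be told.

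**Figure D2:**
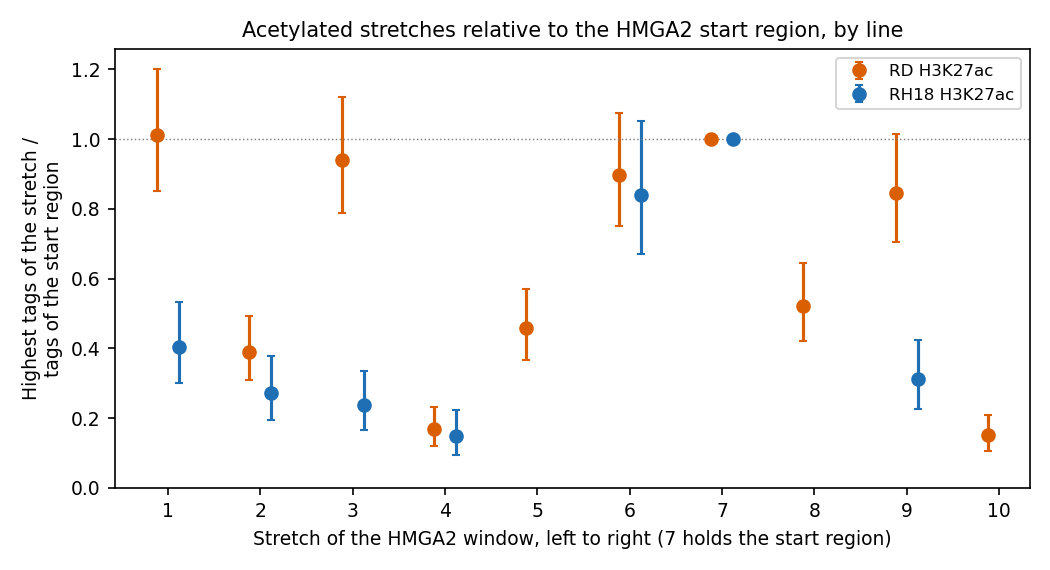
Highest tags of each stretch of the HMGA2 window divided by the tags of the start region of the same line, with exact 95% intervals for counting error (stretch 7 is 1 by definition, and a missing point means no listed region). In stretch 1 the RD point is at 1.01 and the RH18 point at 0.403, and in stretch 6 they are at 0.898 and 0.841.

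In the lists as deposited, the RH18 regions all lay at places where RD also had a region. All 14 (100%, exact Clopper-Pearson interval 76.8 to 100%) overlapped an RD region, while over the whole RH18 list 45.1% did. In total 7654 of their 8147 bp lay inside RD regions, and the median distance between nearest summits was 35.5 bp. In the other direction 14 of the 78 RD regions (17.9%, 10.2 to 28.3%) overlapped RH18, while over the whole RD list 60.0% did. RH18 had only 14 regions in the window, so few of the 78 could overlap one. The 64 RD regions without a counterpart had a median gap of 8750 bp to the nearest RH18 region, and for 3 of them the gap was at most 500 bp. When the overlap had to span 50% of each region, 42.9% of the RH18 and 7.69% of the RD members were shared. With a −log10 q of at least 10 required in both lists, 10 of 13 RH18 members (76.9%) overlapped RD. Of the RD members, 10 of 56 (17.9%) then overlapped RH18. Whole-list shares under these 50% and q settings are not given here, so the 45.1% and 60.0% are no baseline for them.

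The overlap with RH18 was below that of the whole list in every class of tags. The window holds 78 RD and 14 RH18 regions, so these shares largely restate the counts and are no separate result. Unshared RD members had fewer tags (median 69.5, range 27 to 269) than shared ones (median 177, range 34 to 266), as in the whole list (59 against 109). Of the members with at least the median tags of the list, 11 of 40 (27.5%, 14.6 to 43.9%) overlapped RH18, where 79.9% of such regions do. The list was also split by tags into 3 equal classes. In the highest class 9 of 27 members (33.3%, 16.5 to 53.96%) overlapped RH18, where 85.7% of the class does. In the middle class it was 2 of 20 where 61.4% do, and in the lowest 3 of 31 where 32.8% do. Members of a stretch are neighbours and not independent of each other, so these intervals are too narrow.

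**Figure D3:**
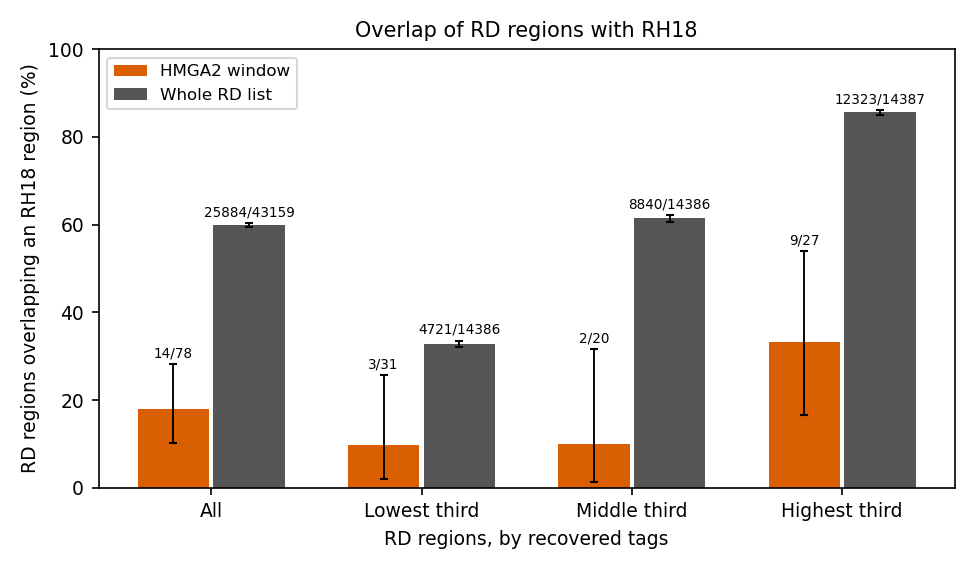
Percentage of RD H3K27ac regions that overlap an RH18 region, for the members of the HMGA2 window and the whole RD list, over all regions and in 3 equal classes of the list by tags; error bars are exact 95% intervals, and the counts stand above the bars. In the highest class, 33.3% of the members and 85.7% of the list overlapped RH18. The window holds 78 RD and 14 RH18 regions, so low shares largely restate these counts.

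MYF5, mapped in RH18, had 3 peaks in the HMGA2 window. Their summits all lay inside RH18 H3K27ac regions (3 of 3, interval 29.2 to 100%, where 55.2% of all MYF5 summits lie in such regions). The farthest upstream (65960123 to 65960311, fold 9.90, 29 tags) lay in stretch 2, with its summit 18 bp from that of the RH18 region and 4 bp from that of an RD region of 93 tags. The highest (66025963 to 66026262, fold 14.1, 42 tags) lay at stretch 4. Its summit was inside an RH18 region of 26 tags and 52 bp outside an RD region of 43 tags, which the peak itself overlapped. The third (66216706 to 66216908, fold 8.61, 25 tags) overlapped the narrow RH18 region just left of the start region. Its summit lay inside that region, 60 bp from the region's own summit. The whole peak lay inside the wide RD start region. So 2 of 3 summits lay inside RD regions, where 39.9% of all summits do, and the same 2 lay inside regions of both lines, where 33.5% do. Within 500 bp of a region lay 3 of 3 for RD, where 62.9% do, and 3 of 3 for RH18, where 72.1% do.

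None of the MYF5 peaks lay in the large RD stretches 1 and 3. The highest had the median number of tags of its list and a fold above 71.1% of it. The other 2 were in the lower part of the list, above 9.91% and 2.59% of it by tags and above 36.7% and 22.4% by fold. Of the 14 RH18 members, 3 held a MYF5 summit (21.4%, 4.66 to 50.8%), where 12.0% of the list do. Of the 78 RD members, 2 did (2.56%, 0.312 to 8.96%), where 9.71% of the list do. MYF5 was not mapped in RD here, so whether it binds these stretches in RD was not measured.

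Fold enrichment and tags ranked the RD members differently. The start region of RD had the second most tags of the 78 members but ranked 27 by fold, at 14.7. The RD region just right of it (263 tags) had a fold of 10.4. The local background under them, which the peak caller divides by, stood at 6.27 and 9.40 times the minimum of that list. In all, 12 RD members had a background of at least 4 times the lowest (31.9% of the RD list does). They had a median of 146 tags and a fold of 5.44, and the other 66 members had 66 tags and a fold of 10.5. In RH18 no member of the HMGA2 window had such a background (10.1% of that list does), with values from 1.00 to 2.35, and under the MYF5 peaks it was 1.00 (4.91% of that list is at 4 or more). Copy number was not measured, and its part in the difference between the lines was not tested.

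**Figure D4:**
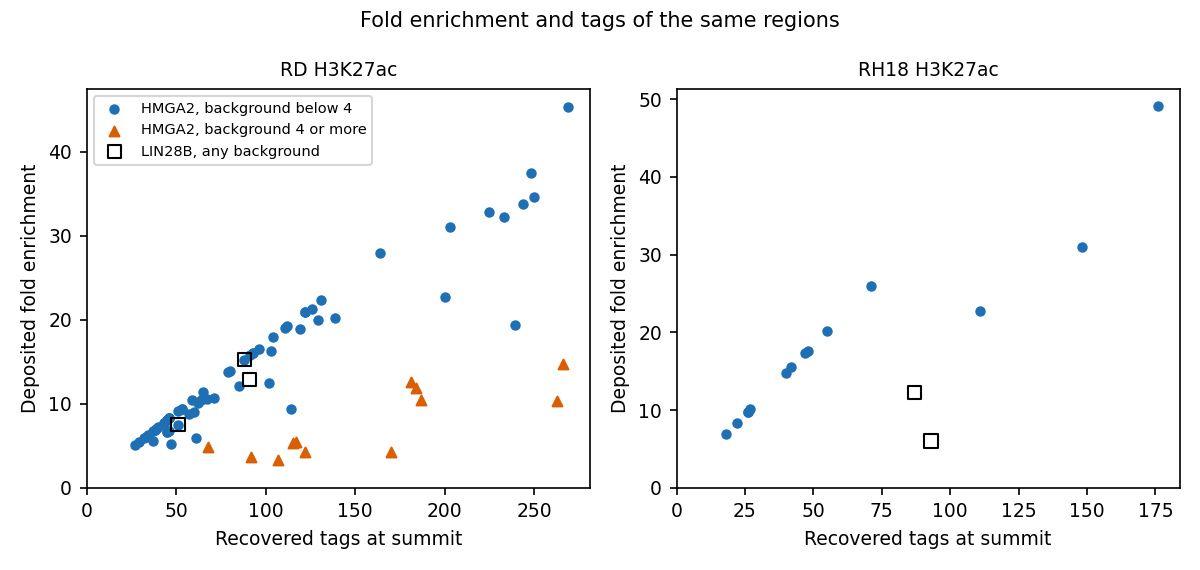
Deposited fold enrichment against recovered tags for each H3K27ac member, RD on the left and RH18 on the right, with triangles for HMGA2 regions whose local background was at least 4 times the lowest of the list and squares for LIN28B. The RD regions at the start of HMGA2, at 263 and 266 tags, are the triangles on the far right, with folds of 10.4 and 14.7.

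LIN28B had few acetylated regions in either line, and a pair of them near a start of the gene was listed in RD only. RD had 3 regions in the window (0.619 to 8.77), covering 1279 bp or 0.556% of it, and RH18 had 2 (0.242 to 7.22), covering 851 bp or 0.37%. A pair of RD regions lay side by side, at 105404974 to 105405646 (fold 15.3, 88 tags) and 105405862 to 105406171 (fold 12.9, 91 tags). By general knowledge of the hg19 map, they lie at the downstream start, whose CpG-poor promoter is printed above. Each was near the middle of its list by tags, the first above 52.0% of it. By fold they stood higher, above 87.0% and 80.5% of it. The nearest RH18 regions were 56497 and 55972 bp away. No region of either line was listed between the left edge of the window and this pair, where the CpG-rich upstream start lies. The pair ranked 4569 among the RD domains. For all 3 RD regions of this window the recovery had several solutions, so their tags and backgrounds rest on the one that was kept.

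The other acetylated place of the window was found in both lines. The RD region at 105462087 to 105462382 (fold 7.53, 51 tags) overlapped the RH18 region at 105462144 to 105462530 (fold 6.03, 93 tags) by 239 bp, and their summits were 15 bp apart. A second RH18 region at 105464537 to 105465000 (fold 12.2, 87 tags) had no RD counterpart. Joined, the RH18 regions ranked 13127 among the domains of their list. So 1 of 3 RD regions (0.840 to 90.6%) and 1 of 2 RH18 regions (1.26 to 98.7%) were shared. Over the whole lists 60.0% of RD and 45.1% of RH18 regions are, and both shares lie inside these wide intervals. The RH18 background was 9.10 times the lowest of its list in the shared region, which counts as raised, and 3.79 times in the other, which does not. Under the RD region it was 1.53 times the lowest of the RD list. By tags the RH18 regions stood above 69.6% and 67.1% of their list and the RD region above 20.5% of its own. By fold the order was the other way: the RH18 regions stood above 6.29% and 43.0%, and the RD region above 44.8%.

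**Figure D5:**
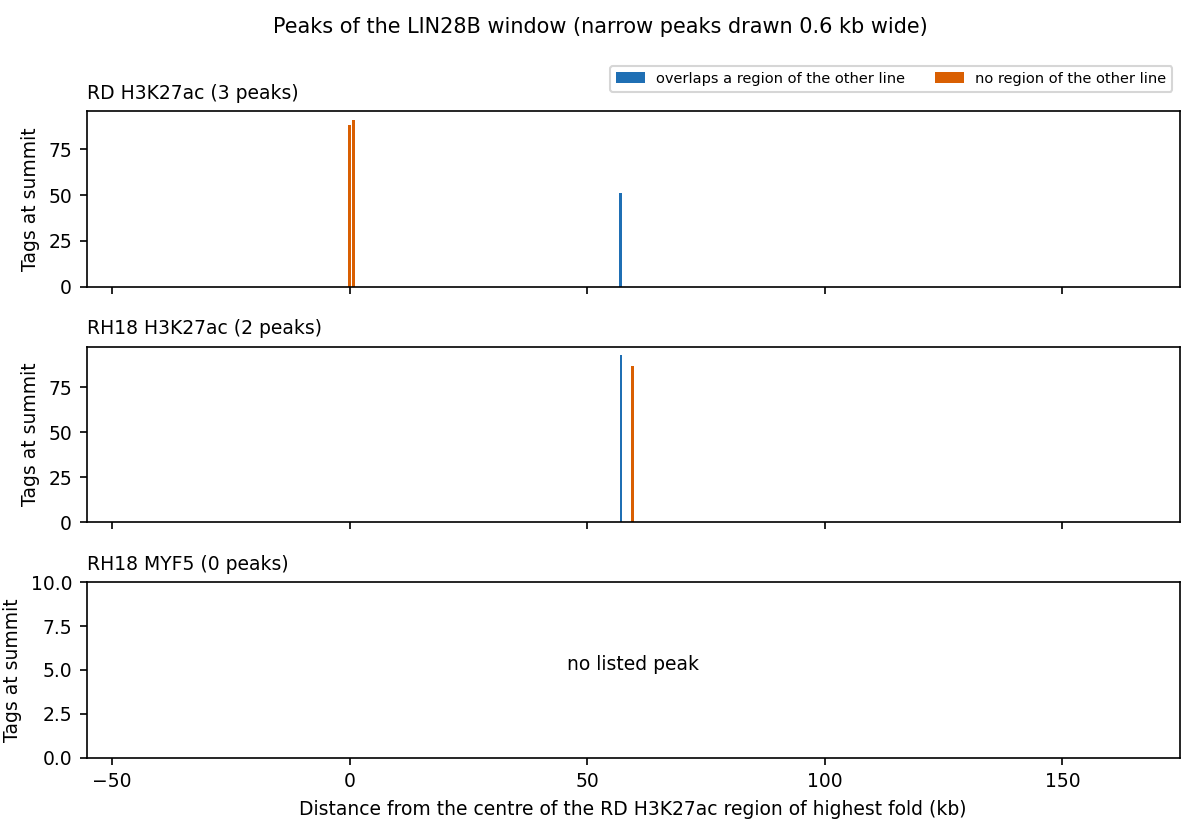
Peaks of the LIN28B window, by distance in kb from the centre of the RD H3K27ac region of highest fold, with bar height giving the recovered tags at the summit (each panel has its own scale). The RD pair of 88 and 91 tags at zero has no RH18 region, the region near 57 kb is found in both lines, and no MYF5 peak is listed.

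MYF5 had no listed peak in the LIN28B window (0, exact upper limit 3.69 peaks). The nearest MYF5 peak on the right (105609385 to 105609604, fold 8.28, 24 tags) lay 29384 bp past the edge of the window, and its summit was 203335 bp or more from the RD pair. In RefSeq's gene order the muscle genes POPDC1 and POPDC3 follow LIN28B, but neither the peak nor the window edge was placed against them. Acetylation also began again just past that edge: the nearest RD region outside (105583111 to 105583294, fold 8.36, 57 tags) was 3110 bp away, and the nearest RH18 region (105584048 to 105585522, fold 19.6, 140 tags) was 4047 bp away. On the left, the list of RD had no region for 4.08 Mb before the pair, a stretch in which RH18 had 3 regions and MYF5 had 2 peaks; the RD list has 37 gaps of at least this length. At HMGA2 the nearest outside regions lay 28156 and 50028 bp from the edges in RD (29 and 33 tags) and 118712 and 114100 bp in RH18 (95 and 92 tags), while the outermost members inside had 34 and 40 tags in RD and 22 and 55 in RH18.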

How the data were processed

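ChIP-seq peak lists of 3 libraries were used, 1 per group (RD H3K27ac, RH18 H3K27ac, RH18 MYF5). Per the submitters' processing notes, the build was hg19 and the tools included BWA 0.7.10 and MACS2 2.1.0; their roles, the control and the threshold are not given in the sources used here. Each deposited list gives, per peak, a fold enrichment (a ratio over local background), a −log10 p-value and −log10 q-value, a summit position, and a score that was not used. All such peak values are the authors'. Total reads are not given in the sources used here.

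Tags were recovered by solving the formulas of MACS2: fold divides pileup by background after 1 is added to both, and p is a Poisson probability with the background as mean. One tag equalled 0.273, 0.832 and 0.658 pileup units in the lists above. Of the 20076, 39908 and 7739 peaks with a single solution, from some of which that worth was fitted, 100% were whole within 0.1 tag. Several solutions existed for 53.5%, 14.0% and 30.5% of peaks, for 52 of the 78 RD members at HMGA2 and for all 3 at LIN28B; the nearest to a whole tag was kept. The step and the overlaps were tested on simulated data.

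Regions overlapping by 1 bp or more were called shared, MYF5 peaks were placed by summit, and regions within 12500 bp were joined and ranked by summed fold times width. Background of at least 4 times the list's lowest was called raised. Given with values were every MYF5 peak, the 5 regions of highest fold, the widest and the 3 of highest fold without a counterpart in each window and H3K27ac list, and the region of highest fold in each stretch of at least 3. The members, lists and rule were chosen with earlier results of these data known. Stretch ratios and classes by tags were added after seeing the data. Other let-7 pathway loci, and sequences under peaks, were not analysed here, since both need an hg19 genome or annotation. Software: Python 3.11.15 with scipy 1.17.1, pandas 2.3.3 and numpy 2.4.6; figures were drawn in matplotlib 3.10.9.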

Additional observations from a re-analysis of the deposited data

How the results depend on the processing

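Of 66 alternative values, 51 stayed within the interval or within 1.5 times of the value given above, and 15 moved. With sharing defined as 50% reciprocal overlap, 7.69% of the RD and 42.9% of the RH18 members at HMGA2 were shared. Whole-list shares under this and the next alternative are not given here. At a −log10 q of at least 10, which left 56 RD and 13 RH18 members at HMGA2, no LIN28B region was shared (0% in RD and 0% in RH18). Another alternative, without that filter, took only LIN28B members with at least the median tags of their list. Of these, 0% of the 2 in RD and 50% of the 2 in RH18 were shared. That alternative was chosen after seeing the data. All 3 MYF5 summits (100%) lay within 500 bp of an RD region. Widening the LIN28B window by 50 kb gave 16 RD, 7 RH18 and 2 MYF5 peaks, since it takes in the regions past its right edge and, in RH18, at least 1 region past its left edge. The highest RD domain at HMGA2 ranked 41 with joining at 25000 bp and 39 by summed tags. By summed tags the highest RH18 domain at HMGA2 was the stretch 6 pair, at rank 4063, in place of the start region (1311 by fold times width). At LIN28B the ranks by summed tags were 8026 in RD (4569) and 6613 in RH18 (13127). The median RD background at HMGA2 was 2.16 times the lowest over the 26 members with a single solution, against 1.20 over all. The cause of the other moves was not tested. The weakest listed peak had a −log10 p of 5.00 in RD and 7.09 in RH18, so an absent region means a different level in each. No paired analysis was possible because each group is 1 library, and no replicate could be left out.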
